A study of Homo sapiens with 18 samples.

Results

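The trefoil peptides TFF1, TFF2 and TFF3, the gel-forming mucins MUC2 and MUC5AC, and the goblet cell proteins REG4, AGR2, SPINK4, FCGBP and SPDEF were followed in RNA-seq profiles of 2 human colorectal cancer cell lines. These 10 genes were chosen by symbol among the 61806 genes listed, and 9 of the 10 reached a TPM (a transcript's share of its library, scaled by gene length) of 1 in at least 3 of the 18 libraries. FCGBP stayed under 1 TPM in every library and was not tested. There were 6 groups of 3 libraries, 3 under each line label. LoVo and DLD-1 are lines grown from human colorectal adenocarcinomas. Under each label, cells of the genotype LIN28B overexpressed were profiled with 5 µM alpelisib and without it, next to cells of the genotype EV, read here as empty vector, without drug. LIN28B binds RNA and keeps let-7 microRNA precursors from maturing, and alpelisib inhibits the alpha isoform of phosphatidylinositol 3-kinase. The vehicle, the time under drug, and the origin of each derivative from 1 clone or a pool are not given in these sources, and no EV group with alpelisib was analysed here. The labels do not say that replicates came from separate cultures, so each p-value speaks only of the spread between libraries, which may be technical.

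Goblet cells are secretory cells of the intestinal lining that fill granules with heavily glycosylated mucins and release them as mucus. Trefoil peptides are small, disulfide-rich proteins packed and secreted with mucins, and they take part in the repair of the mucosa. TFF3 and MUC2 are typical of intestinal goblet cells, whereas TFF1, TFF2 and MUC5AC are typical of the stomach and are often switched on in colorectal tumours. AGR2 is a protein disulfide isomerase of the endoplasmic reticulum that is needed to make MUC2 in mouse intestine, REG4 is a secreted lectin-like protein, SPINK4 is a secreted protease inhibitor, and FCGBP is a large mucus protein that binds to MUC2. SPDEF is an ETS transcription factor that drives goblet cell maturation in mice.

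The libraries labelled LoVo LIN28B stood apart from LoVo EV across the transcriptome, and this bears on every comparison of the members with LoVo EV. Pearson's r of log2(TPM + 1) across genes, which are not independent replicates, was 0.8904 to 0.9176 between LoVo LIN28B and LoVo EV, against 0.9636 to 0.968 between LoVo LIN28B and DLD-1 LIN28B. Between LoVo EV and DLD-1 EV it was 0.8864 to 0.9181. Within groups it was 0.9673 to 0.9831. KRT20, a keratin of mature colonocytes, measured 4.32 to 4.95 TPM in LoVo LIN28B and 111 to 118 TPM in DLD-1 LIN28B, and averaged 0.685 TPM in LoVo EV. It is 1 of 11 tested epithelial markers. Of these, 4 were higher, 3 lower and 4 not called in LoVo LIN28B against DLD-1 LIN28B, beside 7.96% of all genes higher and 6.02% lower. Which line the LoVo-labelled LIN28B libraries came from was not tested, and "LoVo-labelled" is written below for that reason. LIN28B averaged 687 ± 16.6 TPM in LoVo-labelled LIN28B cells and 4.15 ± 0.668 TPM in LoVo EV (SD, n = 3 each), and 462 ± 46.3 TPM in DLD-1 LIN28B and 1.76 ± 0.853 TPM in DLD-1 EV. With alpelisib it averaged 154 ± 7.14 TPM under the LoVo label and 143 ± 5.68 TPM in DLD-1, so that the drug comparisons also differ in the LIN28B transcript. The libraries held 23010 to 25501 genes above 0, and their depth is unknown because TPM keeps no record of it.

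The summed level of epithelial markers (EPCAM, keratins, CDX2, villin and others, 12 genes) lay between 7048 and 15561 TPM over all libraries. In LoVo EV, KRT8, KRT18 and KRT19 weighed most, at 2553, 1736 and 2438 TPM on average, so the sum does not show colorectal origin. EPCAM and CDX2 averaged 480 and 94.9 TPM there, and KRT20, LGALS4 and VIL1 0.685, 2.87 and 3.03 TPM. All 11 tested were lower in LoVo EV than in DLD-1 EV, beside 38.2% of all genes. Levels of goblet cell markers were checked too. ATOH1, the transcription factor that commits intestinal progenitors to secretory fates, averaged 0.0717 TPM in LoVo-labelled LIN28B cells with alpelisib and 0.200 TPM without it, and was listed at 0 in every library of the other 4 groups. Among 20 other goblet products, CLCA1 and LYPD8 were listed at 0 in every library, and 7 of the 20 stayed under 1 TPM throughout.

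AGR2 dominated the members in each group, at 249 to 774 TPM on average. It made up 52.8% of their summed TPM in LoVo-labelled LIN28B cells with alpelisib and 95.3% in LoVo EV. TFF1, TFF3 and REG4 formed a middle tier in the groups where they were expressed, and the mucins, TFF2, SPINK4, SPDEF and FCGBP reached at most 12.6 TPM in any library. Summed over the 10 members, the level averaged 571 TPM in LoVo-labelled LIN28B cells with alpelisib, 702 TPM in those without drug and 262 TPM in LoVo EV. In DLD-1 the sums were 557 TPM with alpelisib, 710 TPM in untreated LIN28B cells and 903 TPM in EV. These sums followed AGR2 and hide the other members, which are given singly.

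**Figure D1:**
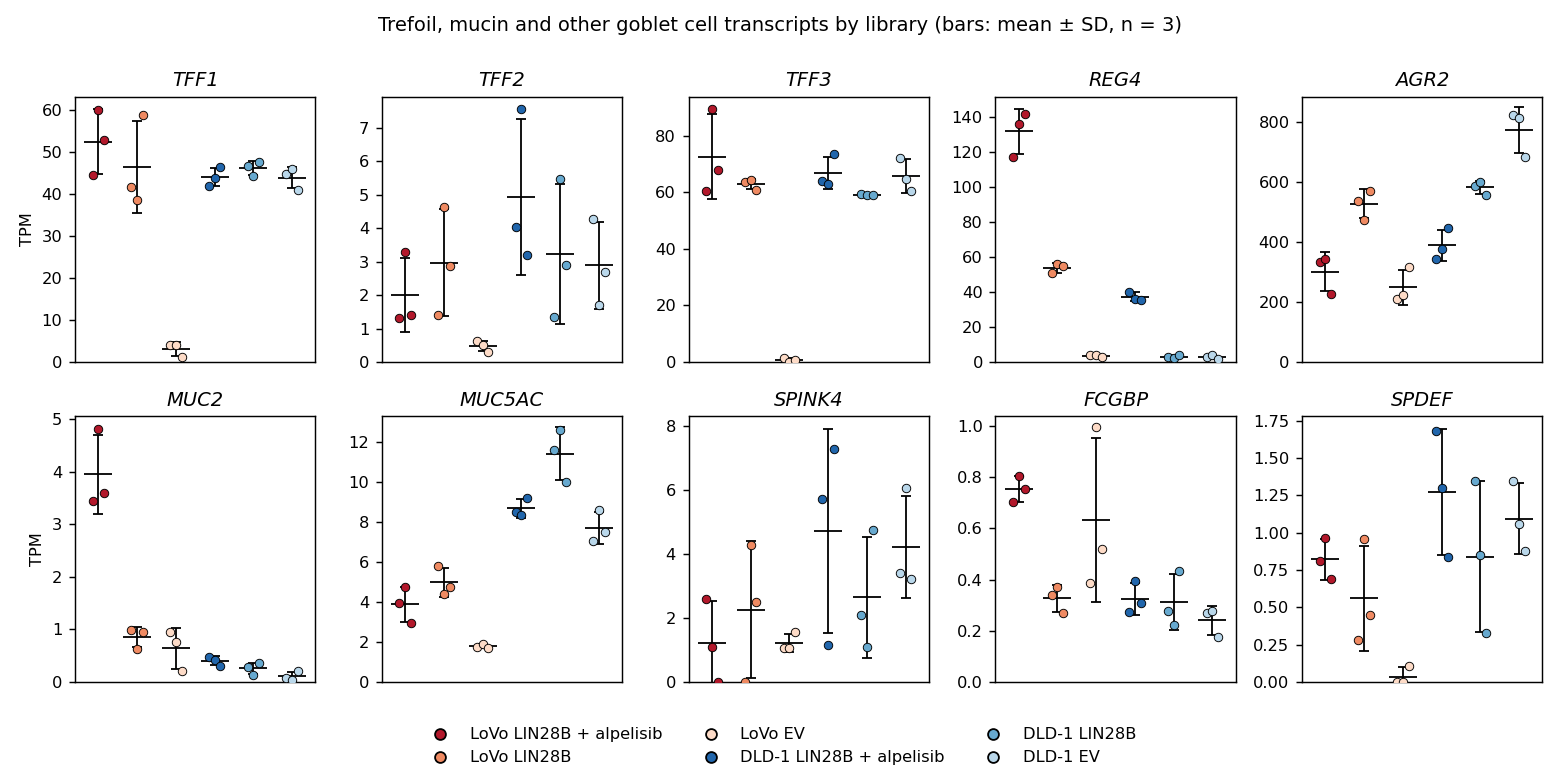
TPM (linear axis from 0, one scale per gene) of the 10 members in each of the 18 libraries, with points for libraries and bars for the group mean ± SD (n = 3); from left to right, LoVo-labelled LIN28B with alpelisib, LIN28B and EV, then the same in DLD-1. TFF1 and TFF3 were low only in the LoVo EV libraries, REG4 stood highest in both alpelisib groups within its own line label, and MUC2 passed 1 TPM only in LoVo-labelled LIN28B cells with alpelisib.

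The promoters of REG4, MUC2 and AGR2 are shown because the results with alpelisib turn on these 3 genes, REG4 and AGR2 by the test and MUC2 as a description. Each run is 250 bases before to 50 bases after the start in RefSeq's annotation of GRCh38.p14, written on the strand of the gene, 5′ to 3′. The members held in the promoter table were REG4, MUC2, AGR2, SPINK4, FCGBP and SPDEF, 6 of 10. Capitals mark matches, on either strand, to 3 motifs that were chosen after the data were seen. A promoter box that places the start was searched as TATAAA. A CDX-type site was searched as TTTATNG. A forkhead-type site was searched as TGTTTNC. REG4 lies at chr1:119811411-119811710, minus strand, MUC2 at chr11:1074624-1074923, plus strand, and AGR2 at chr7:16804950-16805249, minus strand.
REG4: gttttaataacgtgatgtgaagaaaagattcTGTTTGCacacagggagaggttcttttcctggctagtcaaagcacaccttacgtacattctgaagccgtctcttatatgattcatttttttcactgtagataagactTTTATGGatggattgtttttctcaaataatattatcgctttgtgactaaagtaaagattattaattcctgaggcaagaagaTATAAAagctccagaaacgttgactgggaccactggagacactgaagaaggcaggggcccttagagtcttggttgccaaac
MUC2: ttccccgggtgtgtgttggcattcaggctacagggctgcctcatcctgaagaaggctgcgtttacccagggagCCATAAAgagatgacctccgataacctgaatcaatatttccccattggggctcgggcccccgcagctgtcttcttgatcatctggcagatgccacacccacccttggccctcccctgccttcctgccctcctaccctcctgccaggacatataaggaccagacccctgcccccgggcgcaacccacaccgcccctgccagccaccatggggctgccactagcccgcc
AGR2: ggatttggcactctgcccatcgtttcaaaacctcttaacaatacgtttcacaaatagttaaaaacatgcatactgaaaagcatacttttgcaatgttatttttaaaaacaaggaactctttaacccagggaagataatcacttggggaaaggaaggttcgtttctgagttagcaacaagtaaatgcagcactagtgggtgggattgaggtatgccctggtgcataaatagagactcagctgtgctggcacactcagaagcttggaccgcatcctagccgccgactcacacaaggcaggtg
The REG4 promoter held 1 match to each motif, TGTTTGC beginning 219 bases before the start, TTTATGG 112 bases before it and TATAAA 31 bases before it. MUC2 held a CDX-type match on the opposite strand, CCATAAA, 177 bases before its start, and AGR2 held none of these letters in its window. Among 35116 promoters of the same length, 11.5% held TATAAA, 9.73% TTTATNG and 17.99% TGTTTNC. In SPINK4 the CDX-type match on the opposite strand overlapped its TATAAA. A match is a description of the letters and not a bound site.

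In DLD-1, 0 of the 9 tested members passed the test of LIN28B against EV, which was limma on log2(TPM + 1) with Benjamini-Hochberg adjustment over 18537 genes and a threshold of 0.05. Of all genes tested, 2.53% were called in either direction (469 genes, and 185 to 229 when any 1 of the 6 libraries was left out). The unadjusted p was under 0.05 for 2 members, MUC5AC and AGR2. The median difference over the 9 members was 0.05 on the log2 scale, against 0.02 over all genes.

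The trefoil genes lie together on chromosome 21 (GRCh38, 42311667 to 42366594, all on the minus strand), within 54.9 kb. TFF1 measured 46.6, 44.2 and 47.6 TPM in DLD-1 LIN28B, against 44.7, 45.8 and 41.0 TPM in DLD-1 EV. TFF3 measured 59.4, 59.0 and 59.0 TPM in DLD-1 LIN28B and 72.1, 64.7 and 60.3 TPM in DLD-1 EV. The TFF1 groups overlapped, and the TFF3 groups lay next to each other without overlap. The difference in TFF1 was 0.07 (log2, 95% confidence interval −0.45 to 0.60, adjusted p = 0.952) and in TFF3 −0.15 (−0.60 to 0.31, adjusted p = 0.846). TFF2 was low, at 1.33, 5.47 and 2.89 TPM in DLD-1 LIN28B against 4.28, 1.70 and 2.703 TPM in DLD-1 EV, and its groups overlapped (adjusted p = 0.991).

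MUC5AC was the member closest to the threshold in DLD-1. It measured 11.6, 12.6 and 10.0 TPM in LIN28B cells, against 7.04, 8.59 and 7.50 TPM in EV cells, so that all 3 LIN28B libraries lay above all 3 EV libraries. The difference was 0.51 ± 0.14 (log2, SE, 1.48-fold by mean TPM), with an adjusted p of 0.0749. With a pseudocount of 5 in place of 1 it was called (adjusted p = 0.033). AGR2 went the other way, at 588, 601 and 558 TPM in DLD-1 LIN28B against 823, 814 and 684 TPM in DLD-1 EV, without overlap (−0.40 ± 0.16, adjusted p = 0.25). REG4 stayed at 2.95, 2.35 and 4.11 TPM in LIN28B cells against 2.96, 3.86 and 2.00 TPM in EV cells (adjusted p = 0.913).

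MUC2, SPDEF and SPINK4 gave no call in that comparison either, and FCGBP was below the level tested. MUC2 averaged 0.258 ± 0.110 TPM in DLD-1 LIN28B and 0.111 ± 0.0855 TPM in DLD-1 EV (SD, n = 3 each), and SPDEF 0.839 ± 0.508 TPM in DLD-1 LIN28B and 1.09 ± 0.240 TPM in DLD-1 EV. SPINK4, with 1.08 to 4.76 TPM in LIN28B cells and 3.20 to 6.06 TPM in EV cells, varied more among replicates than between groups. FCGBP ranged from 0.223 to 0.435 TPM in DLD-1 LIN28B and from 0.176 to 0.277 TPM in DLD-1 EV.

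The same contrast looked different under the LoVo label, where 7 of the 9 tested members were higher in LIN28B cells than in EV cells by the same test and 0 were lower. Of all genes, 40.3% were called higher and 16.5% lower (7463 and 3067 genes), and after scaling by the median of ratios, which moved the median of all genes by −0.30 on the log2 scale, 4750 were higher and 5211 lower. The 7 members stayed called under that scaling. The median difference was 1.10 over the members and 0.26 over all genes. Mitochondrially encoded transcripts made up 8.68% of TPM on average in LoVo-labelled LIN28B cells and 20.5% in LoVo EV. After TPM was rescaled without mitochondrial genes, the 7 members stayed called. In these bulk samples, fewer cells of a type and less RNA per cell cannot be told apart.

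TFF3 had the largest difference of the 9 tested members on the log2(TPM + 1) scale. It measured 63.6, 64.4 and 61.0 TPM in the LoVo-labelled LIN28B libraries, against 1.36, 0 and 0.746 TPM in LoVo EV. TFF1 measured 41.6, 38.5 and 58.8 TPM in LoVo-labelled LIN28B cells, against 4.13, 4.004 and 1.10 TPM in LoVo EV. Every LIN28B library was far above every EV library for both genes. The differences were 5.32 ± 0.21 for TFF3 (adjusted p = 1.06e-11) and 3.62 ± 0.25 for TFF1 (adjusted p = 4.79e-09), on the log2(TPM + 1) scale. TFF2, between them on the chromosome, was low in both groups, at 1.41, 4.62 and 2.88 TPM in LIN28B cells against 0.619, 0.518 and 0.305 TPM in EV cells (1.35 ± 0.39, adjusted p = 0.00784).

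The LIN28B libraries of both labels held nearly the same trefoil levels. TFF1 averaged 46.3 ± 10.9 TPM in LoVo-labelled LIN28B cells and 46.2 ± 1.74 TPM in DLD-1 LIN28B cells, and TFF3 averaged 63.0 ± 1.79 TPM in LoVo-labelled and 59.1 ± 0.243 TPM in DLD-1 LIN28B cells (SD, n = 3 each). The differences between these groups were −0.02 for TFF1 (95% confidence interval −0.55 to 0.51, adjusted p = 0.983) and 0.09 for TFF3 (−0.36 to 0.54, adjusted p = 0.849). What differed was the EV baseline, where LoVo EV lay below DLD-1 EV by a log2 difference of −3.57 for TFF1 (adjusted p = 5.61e-09) and −5.37 for TFF3 (adjusted p = 7.36e-12).

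The neighbours of the trefoil genes gave calls in both directions. Of 7 neighbouring genes listed, 5 were tested, and under the LoVo label 2 were higher and 2 lower in LIN28B cells than in EV cells. Of all genes, 40.3% were higher and 16.5% lower in that contrast, so the counts are not read as a trait of the locus. TMPRSS3, a membrane serine protease encoded next to TFF1, averaged 3.31 ± 1.09 TPM in LoVo-labelled LIN28B cells and 12.9 ± 3.65 TPM in LoVo EV (−1.69, adjusted p = 1.9e-06). RSPH1, a gene of cilia, was also lower (−1.56, adjusted p = 1.54e-06). ABCG1, a sterol transporter, and SLC37A1, a sugar phosphate carrier, were higher (0.56 and 0.41).

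REG4 (chromosome 1, 119794018 to 119811660, minus strand) measured 50.6, 55.9 and 54.6 TPM in LoVo-labelled LIN28B cells, against 3.86, 4.18 and 3.07 TPM in LoVo EV. The groups lay 14.5-fold apart by mean TPM, with a difference of 3.55 ± 0.17 (log2, adjusted p = 6.41e-11). Unlike the trefoil genes, REG4 was low in EV cells of both labels, which differed by 0.28 (adjusted p = 0.178, and 0.0178 with a difference of 0.54 under median-of-ratios scaling). It was also low in DLD-1 LIN28B, so that LoVo-labelled LIN28B cells exceeded DLD-1 LIN28B cells 17.1-fold (3.74 ± 0.17, adjusted p = 3.46e-10).

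AGR2 (chromosome 7, 16791811 to 16833433, minus strand) measured 538, 474 and 570 TPM in LoVo-labelled LIN28B cells, against 209, 222 and 316 TPM in LoVo EV, 2.11-fold by mean TPM (1.10 ± 0.16, adjusted p = 2.56e-05). MUC5AC, at 5.81, 4.39 and 4.73 TPM in LIN28B cells and 1.73, 1.89 and 1.69 TPM in EV cells, was also higher (1.10 ± 0.14, adjusted p = 6.08e-06). For both genes all 3 LIN28B libraries lay above all 3 EV libraries. SPDEF measured 0.281, 0.955 and 0.447 TPM in LIN28B cells and 0, 0 and 0.106 TPM in EV cells. Its difference of 0.57 ± 0.22 passed the test by a small margin (adjusted p = 0.0368) and did not pass without LoVo EV replicate 1 or 2 or LoVo-labelled LIN28B replicate 2 or 3 (adjusted p = 0.0537 to 0.169). The call was also lost with no filter on low values (adjusted p = 0.0516), with only the groups compared (adjusted p = 0.0563) and with a pseudocount of 5 (adjusted p = 0.0975).

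MUC2 did not follow the trefoil genes. It measured 0.979, 0.634 and 0.941 TPM in LoVo-labelled LIN28B cells, against 0.953, 0.752 and 0.205 TPM in LoVo EV, with overlap (adjusted p = 0.386). SPINK4 was erratic, at 0, 4.27 and 2.51 TPM in LIN28B cells against 1.07, 1.05 and 1.56 TPM in EV cells (adjusted p = 0.741). FCGBP measured 0.268 to 0.371 TPM in LIN28B cells and 0.388 to 0.996 TPM in EV cells.

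**Figure D2:**
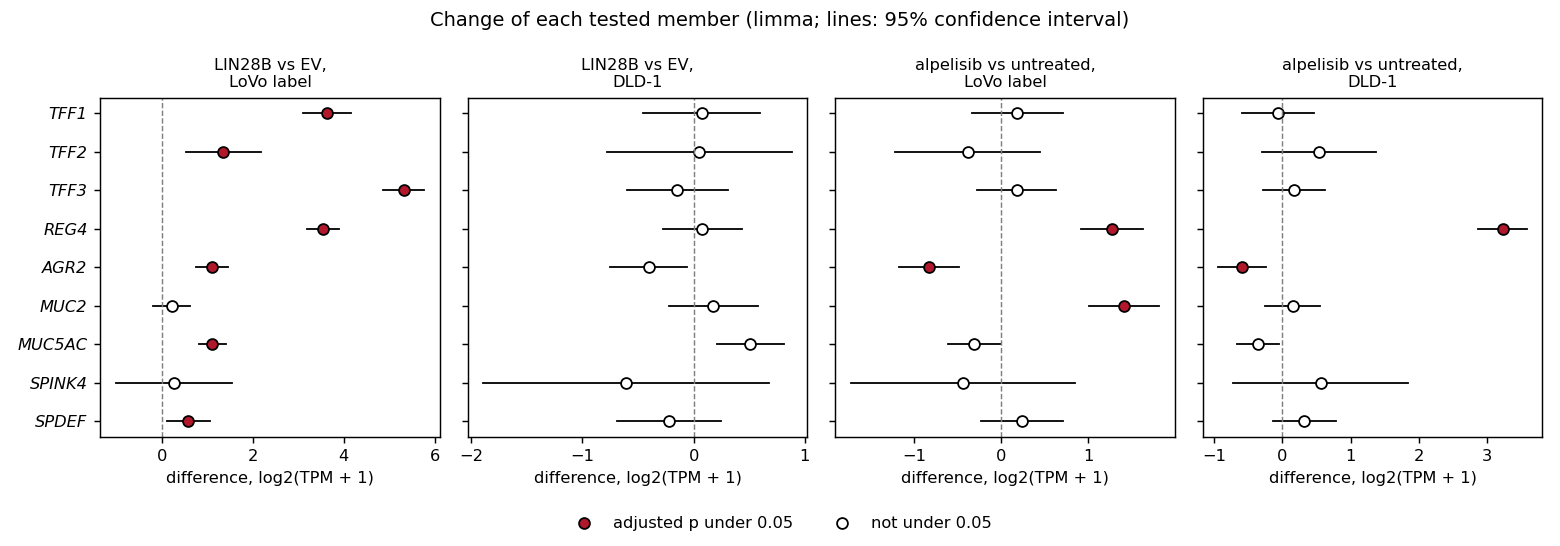
Difference of each of the 9 tested members on the log2(TPM + 1) scale in 4 comparisons (one axis per comparison, 3 libraries against 3), with lines for 95% confidence intervals and filled points for adjusted p under 0.05. LIN28B against EV gave 7 filled points under the LoVo label and 0 in DLD-1, and alpelisib against untreated LIN28B cells gave filled points for REG4 and AGR2 under both labels and for MUC2 under the LoVo label, where MUC2 had passed the filter on low values only through the alpelisib libraries.

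A direct test of the difference between the LIN28B effects of the labels called 5 of the 9 members, with 42.7% of all genes called in either direction. TFF3 (5.46 ± 0.30, adjusted p = 1.45e-09), TFF1 (3.55 ± 0.35, adjusted p = 8.96e-07), REG4 (3.47 ± 0.24, adjusted p = 1.55e-08), AGR2 (1.50 ± 0.23, adjusted p = 7.74e-05) and MUC5AC (0.59 ± 0.20, adjusted p = 0.026) had the larger effect under the LoVo label. The call of MUC5AC was lost without DLD-1 EV replicate 2, DLD-1 LIN28B replicate 3 or LoVo-labelled LIN28B replicate 1 (adjusted p = 0.0683 to 0.0725), with a pseudocount of 5 (0.19, adjusted p = 0.241), under median-of-ratios scaling (0.35, adjusted p = 0.151) and after rescaling without mitochondrial genes (0.47, adjusted p = 0.0699).

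Between the EV groups, LoVo EV was lower than DLD-1 EV in 6 of the 9 members and higher in 1, while 38.2% of all genes were lower and 17.3% higher. Under median-of-ratios scaling the counts over all genes were 4688 lower and 5207 higher, against 7082 and 3212. The 6 lower members were TFF1, TFF2 (−1.35), TFF3, MUC5AC (−1.65), AGR2 (−1.65) and SPDEF (−1.01). SPDEF reached 1 TPM only in DLD-1 libraries and so entered the test through the label where it was higher, and its call here is not read. AGR2, for example, averaged 249 ± 58.2 TPM in LoVo EV and 774 ± 77.9 TPM in DLD-1 EV. MUC2 was the member called higher, at 0.637 ± 0.387 TPM in LoVo EV and 0.111 ± 0.0855 TPM in DLD-1 EV (0.53, adjusted p = 0.0254), but its libraries overlapped and the call was lost without LoVo EV replicate 1 or 2 or DLD-1 EV replicate 1 or 2 (adjusted p = 0.0631 to 0.122).

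Among the LIN28B groups, 1 member was higher and 1 lower in LoVo-labelled than in DLD-1 cells, with 7.96% and 6.02% of all genes called in those directions. REG4 was the higher one. MUC5AC was the lower one, at 4.98 ± 0.738 TPM in LoVo-labelled LIN28B cells and 11.4 ± 1.31 TPM in DLD-1 LIN28B cells (−1.06 ± 0.14, adjusted p = 7.83e-05). AGR2 differed by −0.15 (95% confidence interval −0.49 to 0.20, adjusted p = 0.635).

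Alpelisib was accompanied by higher REG4 and lower AGR2 in LIN28B cells of both labels, while the trefoil genes did not pass the test in either. In DLD-1, 1 member was higher and 1 lower with the drug, with 9.05% of all genes higher and 21.9% lower (1677 and 4067 genes, and 2686 and 2819 under median-of-ratios scaling, which moved the median of all genes by 0.11). In LoVo-labelled LIN28B cells 2 members were higher and 1 lower, but 1 of the higher ones, MUC2, had entered the test only through the alpelisib libraries of that label, so its call is not read. These counts stood beside 15.1% of all genes higher and 24.6% lower (2807 and 4557 genes, and 3699 and 3639 under that scaling).

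REG4 in DLD-1 measured 40.2, 36.2 and 35.5 TPM in LIN28B cells with alpelisib, against 2.95, 2.35 and 4.11 TPM in untreated LIN28B cells. All treated libraries lay far above all untreated ones, 11.9-fold by mean TPM (3.23 ± 0.17, adjusted p = 6.78e-09). In LoVo-labelled cells REG4 measured 117, 136 and 142 TPM with alpelisib, against 50.6, 55.9 and 54.6 TPM without it, again without overlap and 2.45-fold apart (1.27 ± 0.17, adjusted p = 2.85e-05). The change was thus larger in DLD-1, which started lower, and the difference between the labels was −1.96 ± 0.24 (LoVo-labelled minus DLD-1, adjusted p = 0.00103). The mean level with the drug was nevertheless 3.53-fold higher in LoVo-labelled cells than in DLD-1 cells (1.79 ± 0.17, adjusted p = 1.13e-06).

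AGR2 in DLD-1 measured 343, 377 and 447 TPM in LIN28B cells with alpelisib, against 588, 601 and 558 TPM in untreated LIN28B cells. In LoVo-labelled cells it measured 333, 344 and 226 TPM with alpelisib, against 538, 474 and 570 TPM without it. In both labels every treated library lay below every untreated one. The mean was 33.2% lower in DLD-1 (−0.59 ± 0.16, adjusted p = 0.0125) and 42.9% lower under the LoVo label (−0.83 ± 0.16, adjusted p = 0.000895). The DLD-1 call was lost without alpelisib replicate 1 (adjusted p = 0.0611). The effects in the labels differed by −0.24 (95% confidence interval −0.73 to 0.25, adjusted p = 0.749).

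MUC2 (chromosome 11, 1074875 to 1110511, plus strand), the main gel-forming mucin of the colon, passed the filter on low values only through the LoVo-labelled alpelisib group. It measured 3.44, 4.82 and 3.61 TPM there, against 0.979, 0.634 and 0.941 TPM in untreated LoVo-labelled LIN28B cells, 4.65-fold by mean TPM (1.42 on the log2 scale). All treated libraries lay above all untreated ones, but the level in this group is what admitted the gene, so the values are a description and no test of them is given. In DLD-1 it measured 0.478, 0.413 and 0.307 TPM with alpelisib, against 0.288, 0.136 and 0.350 TPM without it, with overlap (0.16 ± 0.19, adjusted p = 0.578). The difference between the labels, 1.26 on the log2 scale, rests on the same group. It was called with all libraries, and the call was lost when any 1 of the 12 libraries was left out (adjusted p = 0.0503 to 0.108), with the replicate number as a block (adjusted p = 0.0655) and with a pseudocount of 0.1 (adjusted p = 0.362).

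MUC5AC (chromosome 11, 1157953 to 1201138, plus strand) lies in the same mucin cluster, within 126.3 kb of the outer ends of both genes, and did not pass the test with alpelisib under either label. In DLD-1 it measured 8.48, 8.34 and 9.21 TPM with alpelisib, against 11.6, 12.6 and 10.0 TPM without it. The groups did not overlap, and the difference of −0.35 ± 0.14 missed the threshold (adjusted p = 0.071). It was called with a pseudocount of 5 (adjusted p = 0.0335) or when only DLD-1 libraries entered the fit (adjusted p = 0.0414). LoVo-labelled cells had 3.95, 4.72 and 2.94 TPM of MUC5AC with alpelisib, against 5.81, 4.39 and 4.73 TPM without it, with overlap (−0.31 ± 0.14, adjusted p = 0.101), and it was called without LoVo-labelled alpelisib replicate 2 (adjusted p = 0.0348).

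TFF1 and TFF3 did not pass the test under alpelisib. TFF1 measured 41.9, 43.9 and 46.3 TPM in DLD-1 LIN28B cells with the drug, against 46.6, 44.2 and 47.6 TPM without it (−0.07, 95% confidence interval −0.59 to 0.46, adjusted p = 0.875). TFF3 measured 64.1, 62.9 and 73.4 TPM with the drug in DLD-1, against 59.4, 59.0 and 59.0 TPM without it (0.17, −0.28 to 0.62, adjusted p = 0.592). For TFF1 the DLD-1 groups overlapped, and for TFF3 the treated libraries all lay above the untreated ones. TFF1 under the LoVo label measured 44.4, 60.0 and 52.8 TPM with the drug, against 41.6, 38.5 and 58.8 TPM without it (0.19, −0.34 to 0.72, adjusted p = 0.589). TFF3 measured 60.5, 89.3 and 67.9 TPM with the drug under that label, against 63.6, 64.4 and 61.0 TPM without it (0.18, −0.27 to 0.64, adjusted p = 0.538). Both overlapped.

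The remaining members had wide spreads. TFF2 ranged from 3.19 to 7.57 TPM in DLD-1 LIN28B cells with alpelisib and from 1.33 to 5.47 TPM in untreated ones (adjusted p = 0.322), and from 1.31 to 3.28 TPM with the drug and 1.41 to 4.62 TPM without it under the LoVo label (adjusted p = 0.478). SPDEF, the goblet transcription factor, averaged 1.27 ± 0.420 TPM with the drug and 0.839 ± 0.508 TPM without it in DLD-1 (adjusted p = 0.286). SPDEF under the LoVo label averaged 0.820 ± 0.137 TPM with the drug and 0.561 ± 0.351 TPM without it (adjusted p = 0.418). SPINK4 had adjusted p-values of 0.524 in DLD-1 and 0.611 under the LoVo label. FCGBP averaged 0.753 ± 0.0513 TPM with the drug and 0.326 ± 0.0527 TPM without it under the LoVo label, and 0.325 ± 0.0621 TPM with it and 0.311 ± 0.110 TPM without it in DLD-1, below the level tested.

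Tested across labels, the alpelisib effect differed for REG4 as given above. The only other member called was MUC2, which had entered the test through the LoVo-labelled alpelisib libraries, so its call is not read. Beside these 2 of 9, 0.847% of all genes were called in either direction (157 genes, and 82 to 155 when any 1 library was left out). For TFF3 the difference of the effects was 0.01 (95% confidence interval −0.63 to 0.65) and for MUC5AC 0.05 (−0.38 to 0.48). With alpelisib on both sides, REG4 was higher and MUC5AC (−1.01, adjusted p = 9.35e-05) lower in LoVo-labelled than in DLD-1 cells. MUC2 stood 1.82 higher on the log2 scale there, again as a description. Of all genes, 11.5% were higher and 7.58% lower in that comparison (2134 and 1405 genes, and 2035 and 2011 under median-of-ratios scaling).

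LIN28B cells with alpelisib were also set against the EV cells of the same label, in contrasts that share libraries with those above. In DLD-1, REG4 was 12.7-fold higher (3.31 ± 0.17, adjusted p = 4.42e-09) and AGR2 was 49.7% lower (−0.99 ± 0.16, adjusted p = 4e-04). The other 7 tested members were not called, with 9.71% of all genes higher and 20.2% lower (1800 and 3740 genes, and 2657 and 3006 under median-of-ratios scaling). The DLD-1 means of AGR2 were 389 ± 52.7 TPM with alpelisib, 582 ± 21.8 TPM with LIN28B alone and 774 ± 77.9 TPM in EV (SD, n = 3 each), and LIN28B alone against EV was not called.

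Under the LoVo label, 6 members were higher in LIN28B cells with alpelisib than in EV cells and 0 were lower, with 32.2% of all genes higher and 14.7% lower (5962 and 2719 genes, and 4089 and 4387 under median-of-ratios scaling, which moved the median of all genes by −0.20). REG4 was 35.5-fold higher (4.82 ± 0.17, adjusted p = 1.42e-12), the largest ratio among the members called there apart from TFF3, whose EV level was near 0. TFF3 (5.50), TFF1 (3.81), SPDEF (0.81) and MUC5AC (0.80) were also higher. The sixth, MUC2 (1.62), entered the test only through these alpelisib libraries, and its call is not read. AGR2 did not pass the test, at 301 ± 65.0 TPM with alpelisib and 249 ± 58.2 TPM in EV (0.27 ± 0.16, adjusted p = 0.19), and it was called without LoVo EV replicate 3 (adjusted p = 0.0238) or LoVo-labelled alpelisib replicate 3 (adjusted p = 0.0208).

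Of the 20 other goblet cell products listed, 12 were tested. In DLD-1 with alpelisib, 2 were higher and 3 lower than in untreated LIN28B cells, beside 9.05% higher and 21.9% lower of all genes. Among them were CAPN8 (1.10, adjusted p = 0.000179) and CAPN9 (0.77, adjusted p = 0.00345), calpains of gastric mucus cells, RAB27A (−0.82, adjusted p = 0.000246), a vesicle-docking GTPase, and SERPINA1 (−0.51, adjusted p = 0.0089), a secreted protease inhibitor. Under the LoVo label 4 were higher and 1 lower, beside 15.1% and 24.6% of all genes, with CAPN8 at 1.58, CAPN9 at 1.32, REP15 at 1.18 and RAB27A at −0.79 on the log2 scale. CAPN8 averaged 19.6 ± 3.89 TPM with alpelisib and 5.90 ± 1.18 TPM without it under the LoVo label, and 39.9 ± 5.95 TPM with it and 17.97 ± 1.60 TPM without it in DLD-1.

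For LIN28B against EV under the LoVo label, 6 of the 12 were higher and 4 lower, where 40.3% of all genes were higher and 16.5% lower (4750 and 5211 genes under median-of-ratios scaling). Among the 6, ZG16 averaged 0.0101 TPM in LoVo EV, 0.0185 TPM in DLD-1 EV and 0.0532 TPM in DLD-1 LIN28B. It entered the test only through other groups, and its call is not read. KLK1, a kallikrein protease, averaged 41.3 ± 4.94 TPM in LoVo-labelled LIN28B cells against 11.1 ± 2.20 TPM in LoVo EV. In DLD-1, where 2.53% of all genes were called in either direction, 0 were higher and 2 lower, SERPINA1 (−0.79, adjusted p = 0.00486) and CAPN8 (−0.64, adjusted p = 0.0491).

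Of the 12 other mucins listed, 6 were tested, and with alpelisib 3 were higher and 0 lower under both labels. Of all genes, 9.05% were higher and 21.9% lower in DLD-1, and 15.1% higher and 24.6% lower under the LoVo label. MUC20, a transmembrane mucin, measured 109, 118 and 119 TPM in DLD-1 LIN28B cells with the drug, against 66.9, 62.0 and 64.5 TPM without it (0.83, adjusted p = 8.73e-06). Under the LoVo label it measured 131, 161 and 141 TPM with the drug, against 50.8, 50.5 and 50.3 TPM without it (1.49, adjusted p = 9.88e-09). The treated libraries lay above all untreated ones under both labels. MUC6, a secreted mucin of gastric glands, and MUC3A, a transmembrane mucin of the intestine, were the others (0.71 and 0.57 in DLD-1, 0.81 and 0.61 under the LoVo label). MUC5B, MUC15, MUC16 and MUC17 stayed under 1 TPM in every library and MUC21 was listed at 0 throughout. The sources do not say how reads shared between mucin repeats or pseudogene copies were counted, so single mucin levels are uncertain.

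LIN28B against EV in DLD-1 called 1 of these 6 mucins, MUC20, which was lower with LIN28B (−0.40, adjusted p = 0.025). In the LoVo-labelled contrast 2 of 6 were higher, MUC13 (1.65) and MUC20 (1.25), and 2 lower, MUC6 (−1.58) and MUC1 (−0.53). Of all genes, 2.53% were called in either direction in DLD-1, and 40.3% were higher and 16.5% lower under the LoVo label.

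Of 21 tested enzymes that build mucin O-glycans, 3 were higher and 7 lower with alpelisib in DLD-1, where 9.05% of all genes were higher and 21.9% lower. Under the LoVo label 4 were higher and 6 lower, where 15.1% of all genes were higher and 24.6% lower. C1GALT1, which makes the core 1 structure, averaged 11.5 ± 0.752 TPM with the drug and 19.7 ± 1.87 TPM without it in DLD-1 (−0.73, adjusted p = 0.000384), and 12.9 ± 1.00 TPM with it and 26.3 ± 3.43 TPM without it under the LoVo label (−0.96, adjusted p = 1.5e-05). ST3GAL1, which adds sialic acid to core 1, averaged 1.86 ± 0.424 TPM with the drug and 7.61 ± 1.69 TPM without it in DLD-1 (−1.58, adjusted p = 0.000246), and 1.57 ± 0.335 TPM with it and 8.52 ± 3.31 TPM without it under the LoVo label (−1.85, adjusted p = 2.77e-05). Both enzymes were called lower in both labels. ST3GAL4 (0.80) and GALNT12 (0.50), an enzyme that starts O-glycans, were among the higher ones under the LoVo label, and FUT3 (−0.79) and GALNT1 (−0.85) among the lower ones in DLD-1.

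In LIN28B against EV, 13 of the 21 enzymes were higher and 3 lower under the LoVo label, beside 40.3% and 16.5% of all genes (4750 and 5211 genes under median-of-ratios scaling). In DLD-1, where 2.53% of all genes were called in either direction, 0 were higher and 2 lower, ST3GAL4 (−0.81, adjusted p = 0.000862) and FUT3 (−1.04, adjusted p = 0.0059). Among the 13 higher under the LoVo label, GCNT4 averaged 0.419 TPM in LoVo EV, 0.131 TPM in DLD-1 EV and 0.115 TPM in DLD-1 LIN28B. Libraries of other groups thus helped to admit GCNT4, and its call is not read. GCNT3, which branches mucin glycans, averaged 38.3 ± 3.16 TPM in LoVo-labelled LIN28B cells and 2.30 ± 0.755 TPM in LoVo EV (3.59, adjusted p = 1.65e-07). It averaged 2.08 ± 2.34 TPM in DLD-1 LIN28B, so that GCNT3, like REG4, stood higher in LoVo-labelled LIN28B libraries than in DLD-1 ones.

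**Figure D3:**
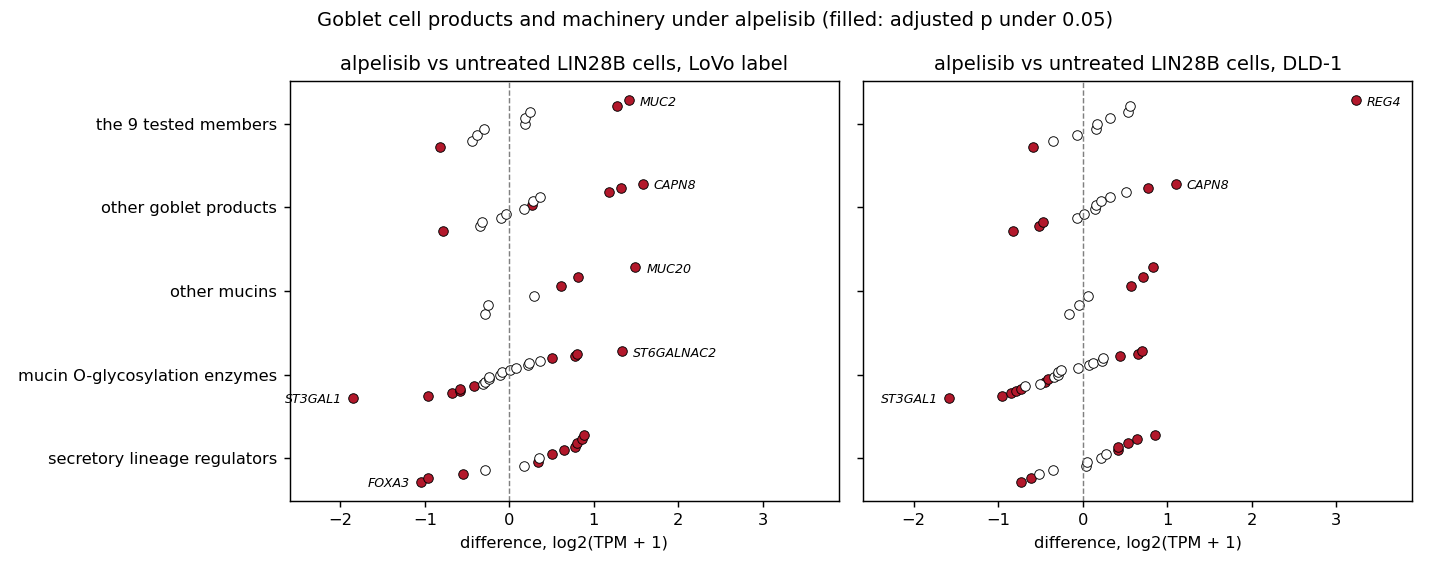
Difference between LIN28B cells with alpelisib and untreated LIN28B cells (log2(TPM + 1), 3 libraries against 3) for each tested gene of 5 lists, LoVo-labelled cells on the left and DLD-1 cells on the right, with filled points for adjusted p under 0.05 and names for the outermost called genes beyond 1. REG4 in DLD-1 lies farthest right at 3.23, ST3GAL1 lies farthest left in both panels, and each list holds filled points on both sides except the other mucins, whose filled points are all to the right.

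Of 14 transcription factors and stress sensors of the secretory lineage, 13 were tested, all but ATOH1. With alpelisib 5 were higher and 2 lower in DLD-1, and 7 were higher and 3 lower under the LoVo label, beside the shares of all genes given above. ELF3, an epithelial ETS factor, averaged 1292 ± 87.5 TPM with the drug and 715 ± 16.9 TPM without it in DLD-1 (0.85, adjusted p = 1.29e-05), and 2948 ± 376 TPM with it and 1614 ± 52.4 TPM without it under the LoVo label (0.86, adjusted p = 4.27e-06). CDX2, the intestinal homeobox factor, averaged 353 ± 42.8 TPM with the drug and 227 ± 27.5 TPM without it in DLD-1 (0.64, adjusted p = 0.0023). HES1, the Notch target that represses ATOH1 in mice, was also higher in DLD-1 (0.54, adjusted p = 0.00319). FOXA2, a forkhead factor of goblet cells in mice, was lower in DLD-1 (−0.73, adjusted p = 0.00107) and under the LoVo label (−0.96, adjusted p = 5.62e-05), while FOXA1 (0.77) and SOX9 (0.50) were higher under the LoVo label.

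XBP1, a transcription factor of the unfolded protein response, was singled out after its values were seen, because it moved in the direction of AGR2. It averaged 81.3 ± 9.14 TPM with the drug and 125 ± 11.2 TPM without it in DLD-1 (−0.61, adjusted p = 0.00487), and 83.7 ± 10.3 TPM with it and 123 ± 6.53 TPM without it under the LoVo label (−0.55, adjusted p = 0.00624).

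Of the 13 regulators, LIN28B against EV gave 11 higher and 0 lower under the LoVo label, and 1 higher (FOXA2, 0.55, adjusted p = 0.0439) and 1 lower (ERN2, −0.67, adjusted p = 0.0149) in DLD-1. Among the 11, CREB3L1 averaged 0.0547 TPM in LoVo EV, 0 TPM in DLD-1 EV and 0.0851 TPM in DLD-1 LIN28B. It entered the test only through other groups, and its call is not read. ERN2, a stress sensor restricted to gut and airway epithelium, averaged 13.3 ± 0.472 TPM in LoVo-labelled LIN28B cells and 0.793 ± 0.373 TPM in LoVo EV. FOXA1 averaged 79.8 ± 1.77 TPM in LoVo-labelled LIN28B cells and 13.3 ± 1.79 TPM in LoVo EV (2.50), and ELF3 (2.25) and KLF4 (2.02), a factor of goblet cell maturation in mice, were higher too. As for the members, 40.3% of all genes were called higher in that contrast under the LoVo label, and 2.53% in either direction in DLD-1.

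**Figure D4:**
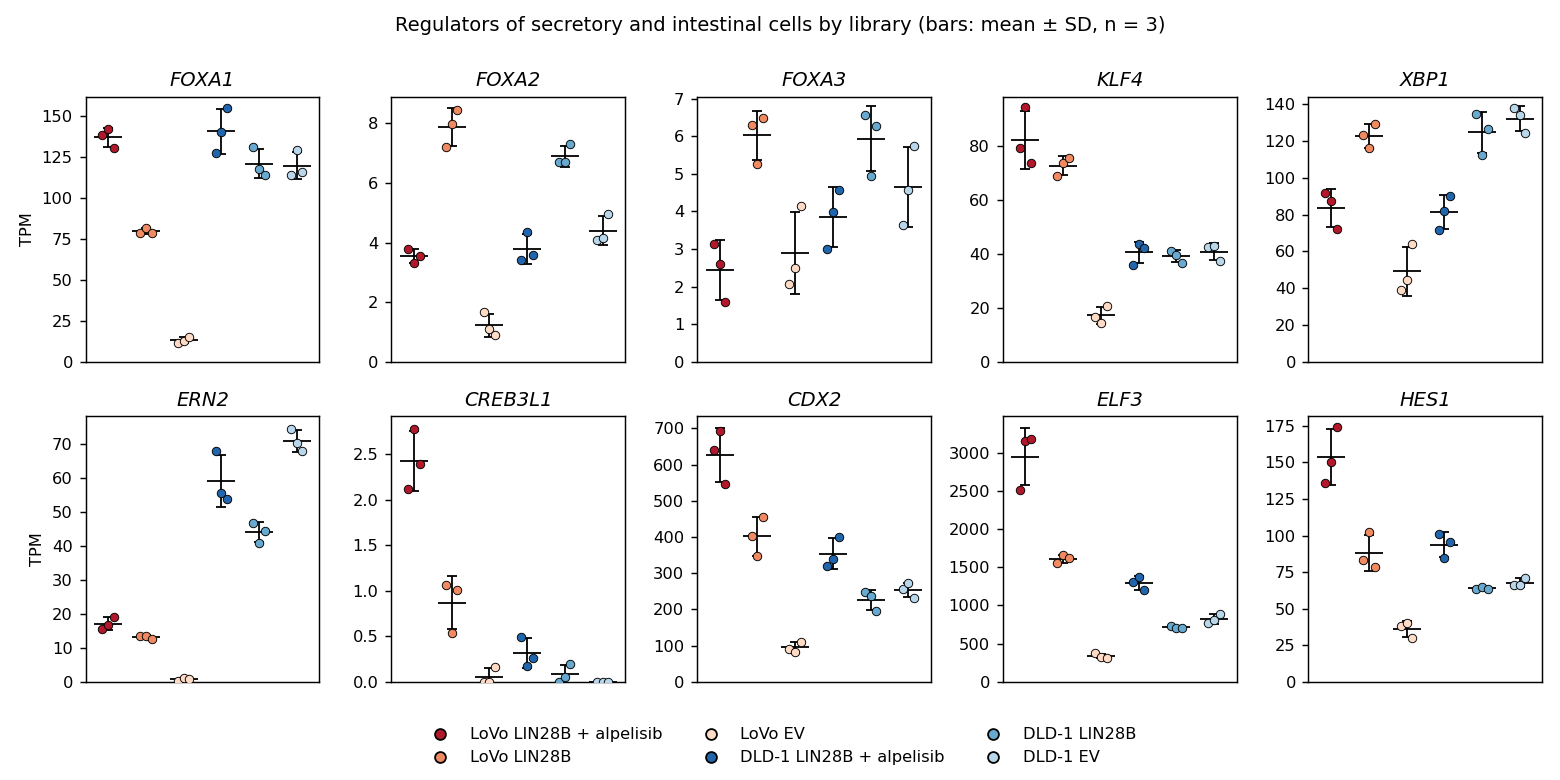
TPM (linear axis from 0, one scale per gene) of 10 regulators of secretory and intestinal cells, chosen for plotting after their values were seen, with points for libraries, bars for mean ± SD (n = 3) and groups in the order LoVo-labelled LIN28B with alpelisib, LIN28B and EV, then the same in DLD-1. ELF3, CDX2 and HES1 stood higher with alpelisib under both labels, and FOXA2 and XBP1 stood lower. The LoVo EV libraries were the lowest in FOXA1, KLF4, ERN2, CDX2, ELF3 and HES1, and LoVo EV also had the lowest mean in FOXA2 and XBP1.

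Markers of other cell types moved beside these results, and their part in them was not tested. Tuft cell markers, 10 listed and 6 tested, summed to 60.7 to 75.4 TPM in LoVo-labelled LIN28B cells with alpelisib against 17.6 to 21.7 TPM without it, and to 40.3 to 47.2 TPM with it against 19.0 to 22.4 TPM without it in DLD-1. AVIL, an actin-binding protein of tuft cells, carried most of this, at 43.0 ± 6.27 TPM with the drug and 3.58 ± 0.297 TPM without it under the LoVo label (3.26), and 29.3 ± 3.35 TPM with it and 6.51 ± 0.955 TPM without it in DLD-1 (2.02). Gastric surface and neck markers, 10 listed and 3 tested, summed to 77.7 to 103 TPM with the drug and 22.9 to 34.8 TPM without it under the LoVo label, and to 30.8 to 33.5 TPM with it and 17.6 to 20.6 TPM without it in DLD-1. PTGS1, a prostaglandin synthase, was lower under both labels (−0.69 under the LoVo label and −0.996 in DLD-1), and ALOX5, a lipoxygenase, was higher under the LoVo label (1.24), so that of the 6 tested tuft markers 2 were higher and 1 lower under the LoVo label and 1 higher and 1 lower in DLD-1. Beside these counts, 15.1% of all genes were higher and 24.6% lower under the LoVo label, and 9.05% higher and 21.9% lower in DLD-1. In the gastric list PSCA was called higher (3.05 under the LoVo label and 1.65 in DLD-1), while GKN1 and GKN2, which define gastric surface cells, were listed at 0 in every library.

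Enteroendocrine markers, 13 listed and 2 tested, summed to 0.838 to 2.79 TPM over all libraries, with NEUROG3, SCGN, GCG, SST and PAX4 listed at 0 throughout. Paneth markers, 9 listed and 2 tested, summed to 9.41 to 13.2 TPM in LoVo-labelled LIN28B cells and 0.384 to 1.81 TPM in LoVo EV, and DEFA5, DEFA6 and REG1B were listed at 0 in every library. With alpelisib the Paneth sum was 8.09 to 13.4 TPM under the LoVo label, against 9.41 to 13.2 TPM without it, and 5.22 to 7.20 TPM in DLD-1, against 15.3 to 23.6 TPM without it. PRSS2, a trypsinogen, was lower with the drug under both labels (−1.92 under the LoVo label and −2.34 in DLD-1), and PLA2G2A, a secreted phospholipase, was higher under the LoVo label (1.02). Absorptive colonocyte markers, 15 listed and 4 tested, summed to 42.2 to 52.4 TPM in LoVo-labelled LIN28B cells and 6.22 to 11.7 TPM in LoVo EV. All 4 tested were called higher, alongside 10 of 11 epithelial markers and 40.3% of all genes. Of the 4, FABP1 (15.8 TPM in LoVo-labelled LIN28B cells) and CEACAM7 (5.90 TPM) averaged under 1 TPM in both EV groups and in DLD-1 LIN28B. The LoVo-labelled LIN28B libraries thus helped to admit these genes, and their calls are not read. GUCA2B and MS4A12 were listed at 0 throughout. In DLD-1, LIN28B cells had 128 to 132 TPM of the absorptive list and EV cells 135 to 148 TPM, with 0 of 4 called beside 2.53% of all genes.

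The genes whose 6 group means of log2(TPM + 1) ran closest to a member were taken from outside these lists, as a description over 6 group means that share libraries and scaling. TFF1 and TFF3 had the same nearest gene, LPCAT3 (Pearson's r = 0.9983 and 0.9984), which averaged 55.4 TPM in LoVo-labelled LIN28B cells with alpelisib, 54.8 TPM without it and 13.3 TPM in LoVo EV, and 53.0 to 55.4 TPM over the DLD-1 groups. NCOA2 (0.9976) and ZBTB14 (0.9973) came next for TFF1, and RPL36A-HNRNPH2 (0.9978) and ZBTB14 (0.9973) for TFF3. All 4 of these genes had their lowest mean in LoVo EV.

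REG4 ran closest to ROMO1 (0.9882), HERC2P2 (0.9881) and HERC2P9 (0.9817), all of which varied far less than REG4 did. ROMO1 averaged 292 TPM in LoVo-labelled LIN28B cells with alpelisib, 264 TPM without it and 191 TPM in LoVo EV, then 244, 186 and 198 TPM in DLD-1. HERC2P2 and HERC2P9 are pseudogene copies of HERC2, whose counts are uncertain. AGR2 ran closest to HSD17B4 (0.9989), PCGF5 (0.9957) and PLPBP (0.9954). HSD17B4, a peroxisomal enzyme, averaged 116 TPM in DLD-1 LIN28B cells with alpelisib, 137 TPM without it and 160.3 TPM in DLD-1 EV, a shallower version of the AGR2 order.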

How the data were processed

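Poly(A)-enriched RNA was sequenced from 18 libraries in 6 groups of 3, and groups and replicate numbers were taken from the titles. The deposited table holds TPM, 1 value a gene and library, as made by the authors per the file headers. In the submitters' processing notes stand hg38, STAR 2.7.10, Picard, HTSeq and DESeq2, with no role or order. The annotation release and use of strand are not given in the sources used here. Because TPM fixes each library's total, a change in abundant transcripts shifts all others. It keeps no depth. Of 61806 Ensembl identifiers, 61757 matched a symbol. Coordinates are from GENCODE release 29 (GRCh38).

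Genes with TPM of at least 1 in at least 3 libraries (18537) entered limma 3.58.1 (R 4.3.3) as log2(TPM + 1), in 1 model of 6 groups with a mean-variance trend, 12 residual and 3.98 prior degrees of freedom, over 11 comparisons. Two-sided p-values were adjusted by Benjamini-Hochberg over these genes in each comparison, with calls under 0.05. The log2 scale with this pseudocount understates changes of low genes. Folds are ratios of mean TPM. The procedure was tested on simulated data.

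Alternatives were pseudocounts of 0.1 and 5, no filter, median-of-ratios scaling, removal of mitochondrial genes, only the groups compared, only the DLD-1 libraries, a replicate block, and leaving out each library. The genes named were the 10 members, LIN28B, and, of each other list, up to 4 called genes with the smallest p in a comparison, any defining genes listed at 0, and for 4 members the 3 genes with the most similar group means and at least 5 TPM. Other genes were named outside this rule, among them XBP1, ATOH1, ZG16, CREB3L1, GCNT4 and the epithelial markers given for LoVo EV. The members and lists were chosen with earlier results of these data known.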

Additional observations from a re-analysis of the deposited data

Results flagged for a closer look

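Effects of the same contrast were called different between the line labels for 7 results on the members, each by a direct test of the difference in limma with Benjamini-Hochberg adjustment. The call of MUC2 among them is not read. For the LIN28B effects 5 of 9 members were called, beside 42.7% of all genes in either direction. For the alpelisib effects 2 of 9 were called, beside 0.847% of all genes. For LIN28B against EV, the effect under the LoVo label minus that in DLD-1 was 5.46 for TFF3 (adjusted p = 1.45e-09), 3.55 for TFF1 (adjusted p = 8.96e-07), 3.47 for REG4 (adjusted p = 1.55e-08), 1.50 for AGR2 (adjusted p = 7.74e-05) and 0.59 for MUC5AC (adjusted p = 0.026), on the log2(TPM + 1) scale. All 5 use the LoVo EV libraries, whose Pearson's r across genes was 0.8904 to 0.9176 with LoVo-labelled LIN28B libraries and 0.8864 to 0.9181 with DLD-1 EV libraries. The MUC5AC call was lost under median-of-ratios scaling (adjusted p = 0.151), with a pseudocount of 5 (adjusted p = 0.241) and after rescaling without mitochondrial genes (adjusted p = 0.0699). It was also lost in 3 of the 12 fits that left out 1 library (adjusted p = 0.0683 to 0.0725). For alpelisib against untreated LIN28B cells, the effect under the LoVo label minus that in DLD-1 was −1.96 for REG4 (adjusted p = 0.00103) and 1.26 for MUC2 (adjusted p = 0.0351). For REG4 all libraries with the drug lay above all untreated LIN28B libraries under each label. MUC2 passed the filter on low values only through the LoVo-labelled alpelisib libraries, so its difference is a description. Its call was also lost when any 1 of the 12 libraries was left out (adjusted p = 0.0503 to 0.108).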

How the results depend on the processing

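Over settings other than leaving out a library, 397 of 412 values for 57 member results kept their direction and side of the threshold, 10 lost the call, 4 gained it and 1 changed sign. That one was TFF1 with alpelisib in DLD-1, at 0.0876 under median-of-ratios scaling. Leaving out 1 library kept 357 of 390 values, with 24 calls lost, 4 gained and 5 changed signs. The sign changes were of uncalled differences, REG4 for LIN28B against EV in DLD-1 (−0.11 to 0.24) and TFF1 between LoVo-labelled and DLD-1 LIN28B cells (−0.20 to 0.10). The genes called for the difference between alpelisib effects numbered 274 under median-of-ratios scaling and 236 with a pseudocount of 5, against 157, and 82 to 155 without 1 library. For LIN28B against EV in DLD-1 they numbered 290 without a filter, 183 with only the groups compared and 185 to 229 without 1 library, against 469. The members called there numbered 1 with a pseudocount of 5, against 0. For the difference between alpelisib effects 1 member was called with a pseudocount of 0.1, with the replicate block and without any 1 library (1 to 1), against 2. The members called with alpelisib in DLD-1 numbered 1 to 2 without 1 library. The causes were not tested.

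Replicate numbers did not pair the libraries. Deviations from group means of same-numbered libraries had correlations of −0.3021 to 0.1191 over 18 pairs, and 1 pair exceeded 0.1. With the number as a block, the MUC2 difference between alpelisib effects stayed at 1.26 with an adjusted p of 0.0655, and no other call on a member reported here changed. Depth is unknown and 3 libraries per group limit precision, most of all for SPINK4, TFF2, SPDEF and FCGBP near 1 TPM. An exact 0 may be a failed estimate.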
